A study of Arabidopsis thaliana with 6 samples.

Results

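The inositol polyphosphate kinases of Arabidopsis thaliana were followed at the transcript level in seedlings labelled vih1vih2, a mutant of both VIH1 and VIH2, and in wild-type Col-0 seedlings. The 9 kinases (IPK2A, IPK2B, IPK1, ITPK1 to ITPK4, VIH1 and VIH2) were taken by their locus identifiers from 26800 identifiers with counts. All 9 had a row and all 9 passed the filter on low counts. Each group consisted of 3 libraries from whole seedlings grown for 12 days at 22 °C on medium with 1% sucrose and 1% agar, so both groups shared age and growth conditions. The labels name neither the mutant alleles nor separate cultures or plants behind the libraries. The p-values therefore rest on spread between libraries that may be technical only.

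Inositol polyphosphate kinases add phosphates to inositol rings. IPK2 enzymes phosphorylate inositol trisphosphate stepwise, IPK1 adds the last phosphate of the ring and so makes InsP6 (phytic acid), ITPK1 and ITPK2 can phosphorylate InsP6 further to the pyrophosphate InsP7, and VIH1 and VIH2 make InsP8 from InsP7. VIH proteins carry a phosphatase-like domain beside the kinase domain. InsP8 is bound by SPX proteins, which then hold back the transcription factors of the phosphate starvation response, and the series title presents it as an intracellular signal of phosphate.

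Total counts were 47894376 to 52902600 in the libraries labelled vih1vih2 and 42697387 to 64410871 in those labelled wild type, and chi-square per degree of freedom between libraries of 1 group was 117 to 143, so no library was a copy of another. Leaf markers (RBCS1A, LHCA1 and GLK1) and root markers (CASP1, EXP7 and MYB36) all had counts in every library (lowest 234, for EXP7 in wild type 3). Of the leaf markers RBCS1A (-0.37 ± 0.02 on the log2 scale) and LHCA1 (-2.10 ± 0.08) fell and GLK1 was not called at 0.44 ± 0.19, and of the root markers CASP1 fell (-1.43 ± 0.07) and EXP7 (0.48 ± 0.43) and MYB36 (0.34 ± 0.13) were not called. The part of organ make-up in the kinase values was not tested. In whole seedlings, fewer cells that express a gene and less RNA per cell cannot be told apart. Levels are given in CPM, counts relative to the TMM-scaled size of the library, per library in the order of replicates 1 to 3. "Rose" and "fell" are used of genes with a Benjamini-Hochberg adjusted p under 0.05 over all genes by edgeR's quasi-likelihood test, and log2 fold changes are vih1vih2 over wild type, ± the standard error.

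Of the 9 kinases, 5 rose (VIH2, VIH1, ITPK2, IPK2B and ITPK1) and 0 fell. Over all 22818 genes tested, 21.4% rose and 19.4% fell, so 40.9% were called. A rise of at least 2-fold was found for 3 kinases (VIH2, VIH1 and ITPK2) and for 11.3% of all genes tested. The median log2 fold change was 0.54 over the kinases, against -0.00205 over all genes tested. The libraries of both groups did not overlap for 6 kinases, which also held for 56.4% of all genes tested. No kinase was lower at an unadjusted p under 0.05 either, and DESeq2 and limma-voom also called 0 lower. With plain library totals in place of TMM factors, a setting chosen after seeing the data, every log2 fold change lay about 0.157 higher and 8 kinases rose. Over all genes tested, 27.6% rose in that setting. It made 66.2% of all calls rises, against 52.5% with TMM.

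**Figure D1:**
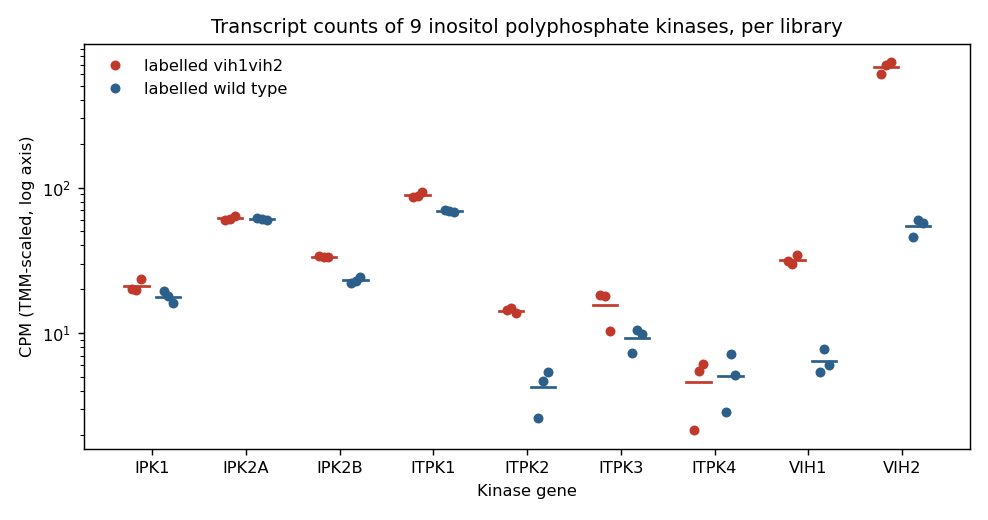
TMM-scaled CPM (log axis) of the 9 kinase genes, with 1 point per library, libraries labelled vih1vih2 to the left of those labelled wild type, and a line at each mean (n = 3). VIH2, VIH1 and ITPK2 are set clearly apart between groups, while the points of IPK2A, ITPK3 and ITPK4 overlap.

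Of the 3 kinases that lead to InsP6 through IPK2 and IPK1, IPK2B alone rose. IPK2A (AT5G07370), a kinase with broad specificity for inositol tris- and tetrakisphosphates, had 60.1, 61.0 and 64.2 CPM in the libraries labelled vih1vih2 and 61.7, 61.2 and 59.8 CPM in those labelled wild type. These ranges overlapped, and the log2 fold change was 0.02 ± 0.05, with a 95% interval of -0.12 to 0.16. Its paralogue IPK2B (AT5G61760) had 34.1, 33.2 and 33.3 CPM in the libraries labelled vih1vih2 and 22.2, 22.7 and 24.4 CPM in those labelled wild type. The groups did not overlap, and IPK2B rose by 0.54 ± 0.07 on the log2 scale (adjusted p = 0.00205 by edgeR's quasi-likelihood test), which is 1.45-fold. IPK1 (AT5G42810), which completes InsP6, had 19.999, 19.9 and 23.6 CPM in the libraries labelled vih1vih2, against 19.4, 18.0 and 16.1 CPM in those labelled wild type. The IPK1 groups did not overlap, but the highest wild-type library lay just under the lowest vih1vih2 library, and the gene was not called at 0.25 ± 0.12 (adjusted p = 0.149), with a 95% interval of -0.04 to 0.54.

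IPK1 and IPK2A each overlap a gene on the opposite strand in the annotation. IPK1 shares 177 bases with U2AF35B, a splicing factor gene, and IPK2A shares 125 bases with AT5G07360, an amidase family gene. The library kit keeps strand, but whether the counting used it is not stated, so reads of the shared ends cannot be told apart. U2AF35B was at -0.24 ± 0.06 and AT5G07360 at -0.87 ± 0.08, so both overlapping genes fell where their kinases did not. The U2AF35B call held without vih1vih2 2 and was lost without any other single library, at log2 fold changes of -0.27 to -0.19 over all 6 fits. The part of these partners in the kinase values was not tested.

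Of the 4 ITPK genes, whose products phosphorylate inositol phosphates from InsP3 to InsP6, ITPK1 and ITPK2 rose and ITPK3 and ITPK4 were not called. ITPK1 (AT5G16760), the ITPK with most counts, had 86.5, 87.4 and 93.8 CPM in the libraries labelled vih1vih2 and 69.6, 69.1 and 67.8 CPM in those labelled wild type. The groups were tight and did not overlap, and ITPK1 rose by 0.38 ± 0.06 on the log2 scale (adjusted p = 0.00428 by edgeR's quasi-likelihood test), 1.297-fold with a 95% interval of 1.18 to 1.43. ITPK2 (AT4G33770) had 14.3, 14.8 and 13.7 CPM in the libraries labelled vih1vih2, against 2.60, 4.69 and 5.42 CPM in those labelled wild type. ITPK2 was thus low in every wild-type library, most of all in wild type 1, and it rose 3.37-fold (log2 1.75 ± 0.28, adjusted p = 0.00563, 95% interval of 2.06 to 5.52).

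ITPK3 (AT4G08170), an ITPK whose substrate in plants is less well established, had 18.3, 17.8 and 10.4 CPM in the libraries labelled vih1vih2 and 7.31, 10.5 and 9.80 CPM in those labelled wild type. Library vih1vih2 3 lay within the wild-type range, and the gene was not called at 0.75 ± 0.27 (adjusted p = 0.0756 by edgeR's quasi-likelihood test). Without vih1vih2 3, ITPK3 was at 0.97 with an adjusted p of 0.0200 (range over the 6 fits without 1 library, 0.0200 to 0.189), and DESeq2 on all libraries called it at an adjusted p of 0.0283. ITPK4 (AT2G43980), which acts on InsP3 and InsP4 and feeds InsP6 synthesis, had 2.14, 5.50 and 6.13 CPM in the libraries labelled vih1vih2 and 2.88, 7.15 and 5.15 CPM in those labelled wild type. Library 1 was the lowest in both groups, and the ranges overlapped almost fully. The log2 fold change of -0.14 ± 0.51 had a 95% interval of -1.41 to 1.13. That interval holds both rises and falls, so neither is excluded.

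VIH1 and VIH2 are the genes named in the mutant label, and both had more counts in the libraries that carry it. VIH2 (AT3G01310) had 608, 695 and 725 CPM in the libraries labelled vih1vih2, against 45.6, 59.9 and 56.6 CPM in those labelled wild type. VIH1 (AT5G15070) had 31.2, 30.02 and 34.1 CPM in the libraries labelled vih1vih2, against 5.37, 7.77 and 6.03 CPM in those labelled wild type. In both genes the groups lay far apart relative to their spread, with VIH2 12.5-fold higher (95% interval of 9.85 to 15.9) and VIH1 4.97-fold higher (3.74 to 6.61). Log2 fold changes were 3.64 ± 0.14 (adjusted p = 3.74e-05 by edgeR's quasi-likelihood test) for VIH2 and 2.31 ± 0.16 (adjusted p = 0.000289) for VIH1. Counts summed over a gene carry no record of where in it the reads fell or of whether its RNA was complete, so these values neither bear out nor contradict the labels, and every direction given here rests on those labels.

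The annotated transcripts of VIH1 and VIH2 differ within almost every stretch of 50 bases. How reads that match both genes were counted is not given, and the part of VIH2 reads in the VIH1 values was not tested. The RefSeq coding sequences, of 3180 bases for VIH1 and 3171 bases for VIH2, were identical at 87.4% of 3138 aligned positions. Annotated VIH1 transcripts hold 4266 stretches of 50 bases and VIH2 transcripts 3933, of which 1 was shared, and none of either gene occurred in the sense sequence of transcripts outside the kinases. The shared stretch is shown here, with 30 coding bases on each side, because it is the only place where 50 bases of the sense strand match both genes without a mismatch. Capitals mark the 5 bases that differ among the 110 shown, which are coding positions 1582 to 1691 of VIH1 (chromosome 5, plus strand) and 1606 to 1715 of VIH2 (chromosome 3, minus strand) in RefSeq TAIR10.1.

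VIH1: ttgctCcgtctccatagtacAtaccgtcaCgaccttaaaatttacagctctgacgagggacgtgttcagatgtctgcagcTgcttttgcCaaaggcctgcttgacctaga
VIH2: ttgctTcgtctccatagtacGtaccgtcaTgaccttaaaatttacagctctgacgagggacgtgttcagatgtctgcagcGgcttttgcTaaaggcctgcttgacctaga

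The other 7 kinases shared no stretch of 50 bases with another annotated transcript when sense sequences were compared, which leaves aside the opposite-strand overlaps of IPK1 and IPK2A. Among paralogues the coding sequences of IPK2A and IPK2B were identical at 78.8% of aligned positions, and those of the 4 ITPK genes at 65.9% to 70.3%. The ITPK genes differ in structure as well, since ITPK1 has 1 exon, ITPK2 and ITPK3 have 8 and ITPK4 has 12. VIH1 has 29 exons (chromosome 5, 4876515 to 4885836) and VIH2 has 30 (chromosome 3, 93995 to 102010).

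Levels of different genes were compared as CPM per kb of the longest annotated transcript. The order depends on that length, and an order by coding length was not computed. ITPK3 has 2906 transcript bases and 1062 coding bases, against 3846 and 3180 for VIH1. In the libraries labelled vih1vih2, VIH2 came first at 178 ± 16.0 CPM per kb (SD, n = 3), followed by ITPK1 at 52.6 ± 2.35, IPK2A at 31.7 ± 1.10, IPK2B at 22.5 ± 0.326, IPK1 at 11.4 ± 1.13, VIH1 at 8.27 ± 0.546 and ITPK2 at 7.10 ± 0.258 CPM per kb. ITPK3 (5.33 ± 1.53) and ITPK4 (2.71 ± 1.27 CPM per kb) came last and were the only neighbours in this order whose libraries overlapped. In the libraries labelled wild type, ITPK1 came first at 40.5 ± 0.550 CPM per kb, followed by IPK2A at 31.2 ± 0.489, IPK2B at 15.5 ± 0.758, VIH2 at 14.2 ± 1.96 and IPK1 at 9.63 ± 0.909. IPK2B and VIH2 overlapped there, and so did each step of the order among the last genes, ITPK3 (3.17 ± 0.577), ITPK4 (2.99 ± 1.26), ITPK2 (2.11 ± 0.728) and VIH1 (1.66 ± 0.322 CPM per kb). Among 22676 tested genes with a length, VIH2 lay above 97.8% in the libraries labelled vih1vih2, against 67.3% in those labelled wild type. VIH1 lay above 50.7% in the libraries labelled vih1vih2 and 17.8% in those labelled wild type.

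The share of each paralogue in the summed counts per kb of its family was compared as well, and no share passed its test after adjustment. VIH1 made up 4.84%, 4.10% and 4.45% of the VIH1 and VIH2 sum in the libraries labelled vih1vih2, against 10.4%, 11.4% and 9.54% in those labelled wild type, so VIH2 was the main VIH transcript in every library. IPK2A made up 57.4%, 58.4% and 59.5% of the IPK2 sum in the libraries labelled vih1vih2, against 68.0%, 67.3% and 65.2% in those labelled wild type. These shares are free of the scaling between libraries, and neither pair of groups overlapped. The differences were -5.99 percentage points for VIH1 and -8.39 for IPK2A, each with a two-sided exact permutation p of 0.1, the smallest that 3 against 3 can give (adjusted p = 0.15 over the 6 shares compared).

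In the ITPK family the minor member ITPK2 took 10.8%, 10.8% and 9.86% of the sum in the libraries labelled vih1vih2, against 2.78%, 4.59% and 5.50% in those labelled wild type. ITPK1 stayed the main member, with 77.6%, 75.5% and 79.8% in the libraries labelled vih1vih2 and 88.2%, 80.0% and 81.4% in those labelled wild type. The difference was 6.20 percentage points for ITPK2 and -5.57 for ITPK1 (exact permutation p = 0.1 each, n = 3 per group, and 0.2 for ITPK1 without division by length), and without wild type 1 the ITPK1 difference was -3.09. The ITPK3 share differed by 1.45 points and the ITPK4 share by -2.08 points, with overlapping groups (exact permutation p = 0.4 each, n = 3 per group). Without 1 library these ranged over 0.613 to 2.83 points for ITPK3, lowest without vih1vih2 1 and highest without vih1vih2 3, and over -3.28 to -0.960 points for ITPK4, lowest without wild type 1 and highest without wild type 2.

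**Figure D2:**
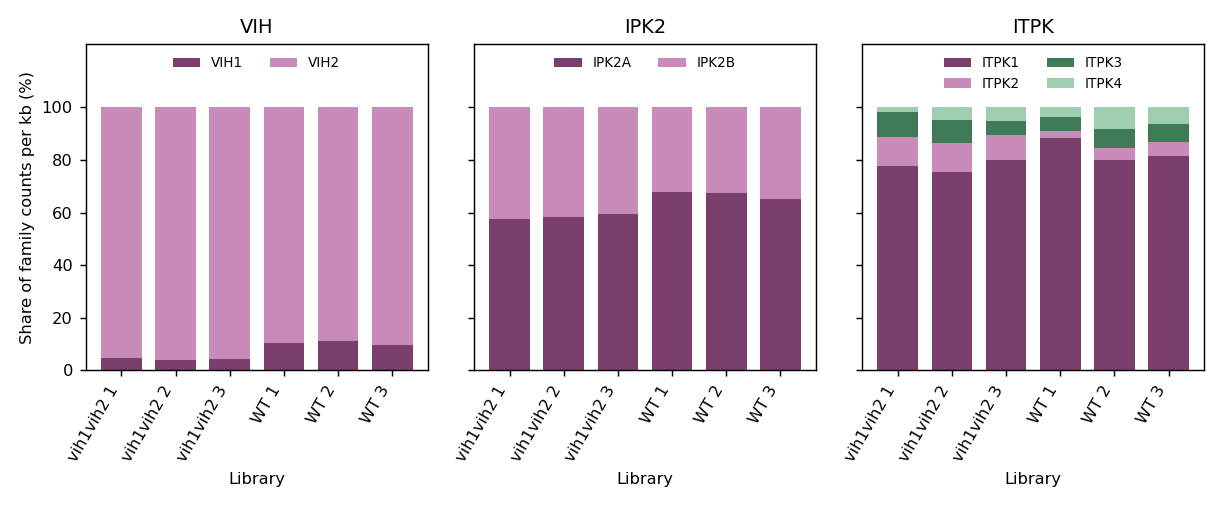
Share (%) of each paralogue in the summed counts per kb of its family, with 1 bar per library and the libraries labelled vih1vih2 to the left of those labelled wild type. VIH1 stays under 5% in the libraries labelled vih1vih2 and above 9% in those labelled wild type, and ITPK2 takes 9.86% to 10.8% against 2.78% to 5.50%.

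The sequence before each gene was searched for GNATATNC, the P1BS motif bound by PHR1, the main transcription factor of the phosphate starvation response. The motif reads alike on both strands. Within 300 bases before the annotated gene start, 0 of the 9 kinases held it, against 6.504% of 27443 protein-coding genes. Within 1000 bases, a window chosen after that result, VIH2 was the only kinase with a match, against 20.3% of protein-coding genes, and it had 2 matches. These lie 637 and 334 bases before the VIH2 start, outside any annotated gene. They are shown with the surrounding 200 bases, on the strand of VIH2 (chr3:102544-102743 and chr3:102241-102440 of TAIR10.1, minus strand), with the matches in capitals, since VIH2 is the kinase of largest change. A match is a description of the sequence and not a binding site.

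VIH2 distal: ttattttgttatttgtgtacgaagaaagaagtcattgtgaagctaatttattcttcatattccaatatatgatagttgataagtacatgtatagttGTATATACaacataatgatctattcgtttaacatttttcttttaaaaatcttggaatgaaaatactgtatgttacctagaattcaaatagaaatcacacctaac
VIH2 proximal: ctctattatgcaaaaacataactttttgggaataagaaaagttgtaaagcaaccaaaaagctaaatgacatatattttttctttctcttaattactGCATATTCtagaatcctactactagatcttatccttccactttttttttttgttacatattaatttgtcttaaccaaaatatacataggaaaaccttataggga

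VIH1 and VIH2 lie in stretches with a like order of genes. Next to VIH1 is AT5G15080 and then VDAC3, and next to VIH2 are AT3G01300, HIR2 and VDAC1. AT5G15080 and AT3G01300 are both annotated as protein kinase superfamily genes, and both VDAC genes encode voltage-dependent anion channels. AT5G15080, which starts 192 bases beyond the end of VIH1, had 1944, 1737 and 1631 counts in the libraries labelled vih1vih2 and 1553, 1090 and 1111 in those labelled wild type, a log2 fold change of 0.39 ± 0.09. It rose, but lost its call without vih1vih2 1 or 2 or wild type 1 or 2 (adjusted p of 0.0258 to 0.0669 over the 6 fits by edgeR's quasi-likelihood test). AT3G01300, which starts 406 bases away from the end of VIH2, fell instead, with 714, 574 and 605 counts in the libraries labelled vih1vih2 and 1641, 1238 and 1167 in those labelled wild type (-1.21 ± 0.09).

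On the other side of VIH1, 565 bases away on the opposite strand, AT5G15060 of the lateral organ boundaries domain family had 80, 48 and 56 counts in the libraries labelled vih1vih2 and 0 in all 3 labelled wild type. The vih1vih2 mean is 56.4-fold a floor of 3 counts over the wild-type group. This bound allows for counting error in the wild-type libraries only. On the other side of VIH2, 668 bases before its start on the same strand, AT3G01311 had 0, 12 and 12 counts in the libraries labelled vih1vih2 and 0 in all 3 labelled wild type, too few to be tested. Of the 5 nearest genes on each side, a span chosen after the values were seen, 5 of 6 tested rose and 0 fell around VIH1, against 21.4% and 19.4% of all genes tested. Around VIH2, 4 of 7 tested rose and 2 fell, and 2 of the 4 that rose, AT3G00980 and AT3G00985, hold the same counts. These were 29, 34 and 42 in the libraries labelled vih1vih2 and 2, 7 and 7 in those labelled wild type. AT3G01316, another of the 4, had 14, 16 and 18 counts against 2, 0 and 3, so these rises rest on few counts. Each of the 4 rises lost its call without some single libraries, VDAC1 without any except vih1vih2 2. No tested neighbour of VIH2 exceeded its fold change, and the part of neighbouring transcription in the VIH values was not tested.

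**Figure D3:**
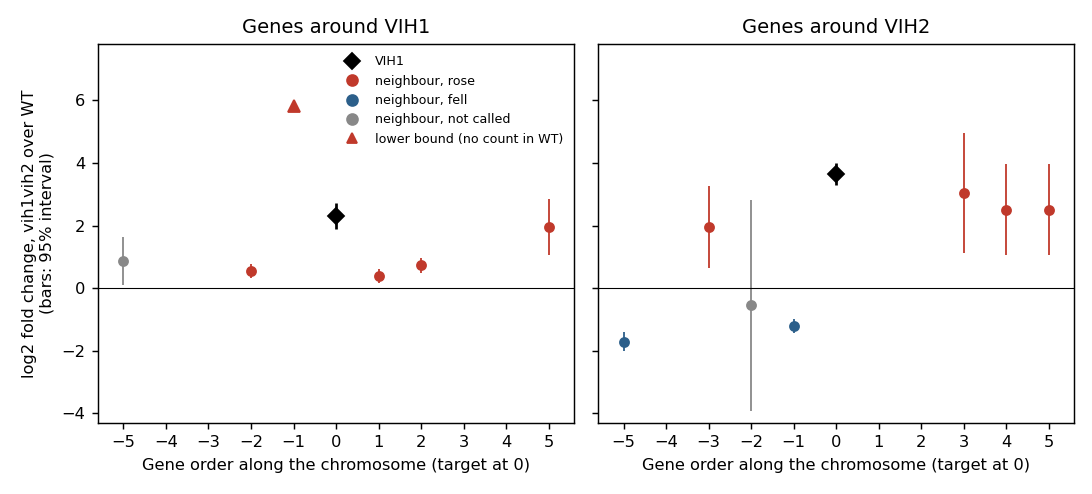
Log2 fold change (libraries labelled vih1vih2 over wild type, bars for 95% intervals) of VIH1 and VIH2 and of the tested genes among the 5 nearest on each side, in order along the chromosome. A triangle marks a lower bound that allows for counting error in wild type only. VIH2 at 3.64 stands above all its tested neighbours, which run from -1.72 to 3.05, whereas next to VIH1 the gene with no wild-type count lies higher than VIH1. The value of 3.05 is from AT3G01316, with 18 counts or fewer in every library.

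Other genes of the pathway were followed through a list of 47, with 46 found in the count table and 44 tested. Of these, 17 rose and 9 fell, against 21.4% and 19.4% of all genes tested, with a median log2 fold change of 0.15. Without 1 library 13 to 17 rose and 6 to 8 fell. Among 7 genes that supply inositol, 3 rose and 2 fell: the phosphatase gene VTC4 was at 1.54 ± 0.41 and MIPS3, an inositol phosphate synthase, at -1.03 ± 0.12. Of 2 tested inositol oxygenases, which degrade inositol, MIOX1 rose (0.52 ± 0.15) and MIOX2 fell (-0.82 ± 0.11). The VTC4 call was lost without vih1vih2 1 or 2 or wild type 1 or 2 (1.27 to 1.89 over the 6 fits), that of MIPS2, another of the 3 rises, without any 1 library except wild type 3 (0.81 to 1.25), and that of MIOX1 without any 1 library except wild type 1.

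Of 8 tested phospholipases C, which release InsP3 from membrane lipids, 2 rose and 1 fell, against 21.4% and 19.4% of all genes tested. PLC1 was at 1.22 ± 0.11 and PLC3 at -0.63 ± 0.16, and the PLC3 call was lost without vih1vih2 1 or 2 or wild type 1. PLC9, the other rise, was at 0.94 ± 0.21 and lost its call without vih1vih2 2 or 3 or wild type 1 (0.78 to 1.10 over the 6 fits). Of 10 inositol phosphate phosphatases 2 rose and 2 fell, but 5PTASE14, 1 of the falls, lost its call without any 1 library (-0.49 to -0.33) and SAL1, 1 of the rises, lost it without vih1vih2 1 (0.53). The 5-phosphatase gene 5PTASE11 had 31.6 ± 1.86 CPM in the libraries labelled vih1vih2 and 0.773 ± 0.238 CPM in those labelled wild type (SD, n = 3), a log2 fold change of 5.34 ± 0.26, while CVP2, known for leaf vein patterning, was at -0.99 ± 0.11.

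The DSP phosphatases, which remove pyrophosphate groups and so act against the ITPK and VIH kinases, moved both ways. DSP1, DSP2 and DSP4 rose (1.48 ± 0.27, 3.61 ± 0.22 and 3.61 ± 0.08), DSP5 fell (-1.80 ± 0.24), and DSP3 was not called at -0.20 ± 0.33, with -0.49 without vih1vih2 1 and 0.08 without vih1vih2 3. ABCC5, the transporter that loads InsP6 into the vacuole, had 244, 261 and 279 CPM in the libraries labelled vih1vih2, against 108, 38.1 and 84.5 CPM in those labelled wild type. ABCC5 was low in wild type 2 and rose, also without any 1 library (log2 1.76 ± 0.38, or 1.43 to 2.09 without 1 library). PAP15, which can break down InsP6, was not called at 0.12 ± 0.22, but passed without vih1vih2 1 at 0.33 (adjusted p = 0.0422 by edgeR's quasi-likelihood test, 0.0422 to 0.993 over the 6 fits).

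Of 8 genes whose products bind inositol phosphates, 5 rose and 2 fell, against 21.4% and 19.4% of all genes tested. The SPX genes, whose proteins are receptors of InsP8, went in both directions: SPX1 (5.59 ± 0.43), SPX2 (2.36 ± 0.06) and SPX3 (6.60 ± 0.96) rose and SPX4 (-0.80 ± 0.12) fell. The phosphate exporter gene PHO1 (0.72 ± 0.10) and the vacuolar phosphate transporter gene PHT5;1 (2.09 ± 0.38), which also encode SPX domains, rose. The auxin receptor gene TIR1 fell by 0.14 ± 0.04, a call lost without any 1 library, at -0.15 to -0.13, and the jasmonate receptor gene COI1 was not called at -0.16 ± 0.06. Neither PHR1 (-0.06 ± 0.08) nor PHL1 (0.84 ± 0.38), whose proteins SPX proteins bind, was called, but PHL1 passed without wild type 3 at 1.27 (adjusted p = 0.0297 by edgeR's quasi-likelihood test, 0.0297 to 0.299 over the 6 fits).

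**Figure D4:**
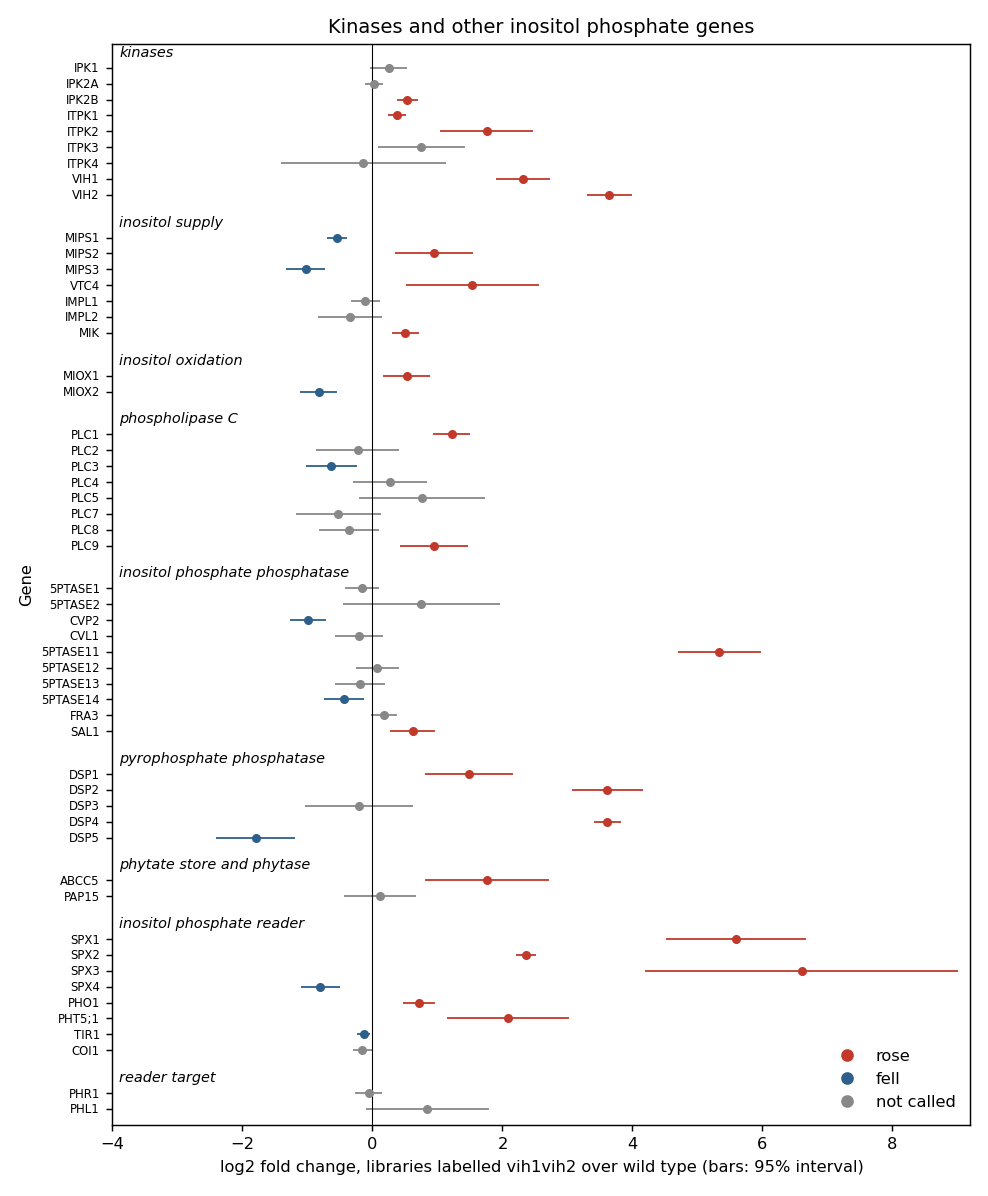
Log2 fold change (libraries labelled vih1vih2 over wild type, bars for 95% intervals) of the 9 kinases and the 44 tested genes of the pathway list, grouped by role and coloured by call. Kinases run from -0.14 for ITPK4 to 3.64 for VIH2, and DSP and SPX genes lie on both sides of 0.

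The genes most like VIH1 and VIH2 across the 6 libraries were sought among 16598 tested genes of at least 5 CPM, by the root mean square difference of log2 CPM centred on each gene's mean. With 3 libraries in each of 2 groups, this measure mostly ranks genes by the size of the group difference. Nearest to VIH1 were AT3G50825, a snoRNA gene (0.08), AT2G05910 (0.09) and the transcription factor gene WRKY45 (0.10). WRKY45 had 68.2 ± 3.63 CPM in the libraries labelled vih1vih2 and 13.3 ± 1.85 CPM in those labelled wild type (SD, n = 3). Nearest to VIH2 were MYB108 (0.11), a transcription factor gene, DSP4 (0.13), a pyrophosphate phosphatase gene of the list above, and bHLH38 (0.14), a regulator of iron uptake. DSP4 had 54.4 ± 3.44 CPM in the libraries labelled vih1vih2 and 4.44 ± 0.181 CPM in those labelled wild type, 12.2-fold higher, beside 12.5-fold for VIH2.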

How the data were processed

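The authors deposited raw counts per gene identifier, with 1 column per library, per the file header. RNA came from whole seedlings ground in liquid nitrogen, and libraries were made with a kit that keeps strand, per the labels' protocols. The submitters' processing notes list CASAVA 1.4, STAR 2.5.3a, StringTie 1.3.3b and build TAIR10, while the counter, annotation and strand setting are not given there. Of 27080 rows, 280 identifiers with 6 digits were left out, since all 280 repeated the counts of their first 5 digits (0.748% to 1.1% of each library). Of 26800 identifiers, 26505 matched a locus of RefSeq TAIR10.1, which gave the names, coordinates, lengths and sequences printed.

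Counts were fitted in R 4.3.3 with edgeR 4.0.16: filterByExpr, TMM and the functions glmQLFit and glmQLFTest, modelling group alone, on all 22818 genes kept, with Benjamini-Hochberg adjustment and calls at 0.05. Each standard error is the size of the log2 fold change over √F, and intervals use the test's degrees of freedom. The fit was tested on simulated data. Shares were tested by exact permutation over libraries. Alternatives were DESeq2 1.42.0, limma 3.58.1 (voom), other scalings, filters and thresholds, organellar genes removed, each library left out and the replicate number as a block. Before TMM scaling, 1 count was worth 0.0155 to 0.0234 CPM.

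The 9 kinases, the pathway list and the tests were chosen with earlier results of these data known. Named genes were all kinases, the called pathway gene of largest change per role and direction, all DSP, phytate and reader genes, the nearest gene on each side of VIH1 and VIH2, and the 3 genes nearest in pattern to each. U2AF35B, AT5G07360, VDAC1, VDAC3, HIR2, AT3G00980, AT3G00985, AT3G01316, MIPS2, PLC9, 5PTASE14, SAL1, PHR1 and PHL1 were named after their values were seen. Figures were drawn with matplotlib 3.10.9.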

Additional observations from a re-analysis of the deposited data

How the results depend on the processing

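The 5 kinases that rose kept direction and call in each alternative listed, with 5 to 6 kinases rising without 1 library and 0 falling in any fit. Of all genes tested, 17.9% to 18.8% rose without 1 library. Plain library totals, chosen after seeing the data, gave 8 rising kinases, while 27.6% of all genes tested rose. IPK1 (0.41), IPK2A (0.18) and ITPK3 (0.91) then passed, and ITPK4 was at 0.0176. Kinases that were not called changed sign in 3 fits without 1 library, ITPK4 at 0.20 without vih1vih2 1 and at 0.19 without wild type 2 (range -0.42 to 0.20), and IPK2A at -0.00921 without vih1vih2 3 (range -0.00921 to 0.0391). A threshold of 0.01 left 11 rising pathway genes, being stricter by construction. Share differences kept their direction under other lengths and without 1 library, where the p-value cannot fall under 0.1. With the replicate number as a block, 5 kinases and 15 pathway genes rose and 8 pathway genes fell, while 3463 of all genes rose and 3020 fell, against 4891 and 4433. Deviations of same-numbered libraries correlated at 0.03, -0.01 and -0.03 for numbers 1, 2 and 3, against -0.04 to 0.05 for different numbers. The labels do not say what libraries of the same number share. ITPK4, at 2.14 to 7.15 CPM, is the kinase with the widest interval.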
